A study of Mus musculus with 9 samples.

Results

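Cytochrome P450 enzymes of families 1 to 4 were examined in mouse liver after an overdose of acetaminophen (APAP), with and without injected stem cells. The members were all protein-coding genes in the deposited expression table whose symbol gave a P450 family from 1 to 4 with its subfamily letter and number, such as Cyp2e1. The rule found 80 genes of the 54532 in the table, of which 22046 are protein-coding, and another 20 protein-coding P450 genes did not match it. These belong to other families except Cyp2ab1, whose symbol has a longer subfamily code and which was at most 0.0473 FPKM in any library. RNA of whole liver was sequenced from 3 groups of C57BL/6 mice. In the NC group the mice served as controls. In the APAP group they received 500 mg/kg APAP into the peritoneum and were sampled at 6 h. In the AMSC group they received the same dose followed at once by mesenchymal stem cells grown from inguinal adipose tissue of C57BL/6 mice, given through the tail vein, and were also sampled at 6 h. The study's methods describe male animals a few weeks old, fasted overnight before APAP, and the labels do not say whether the NC mice were fasted. No group received the cells without APAP, so the effect of the cells alone cannot be told apart from their effect after APAP. There were 3 libraries in each group, which the study's methods call biological replicates, numbered 1, 2 and 3 in NC and APAP and 2, 3 and 4 in AMSC.

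P450 enzymes are heme proteins of the endoplasmic reticulum that insert an oxygen atom into drugs, steroids, bile acid precursors and fatty acids, with electrons passed on by the reductase Por. Families 1 to 3 hold most of the enzymes that handle drugs and other foreign compounds, and family 4 holds mainly fatty acid hydroxylases. In liver many of these genes are expressed most strongly in the hepatocytes around the central vein. Cyp2e1, Cyp1a2 and enzymes of the Cyp3a subfamily oxidise APAP to NAPQI, the reactive product that depletes glutathione and binds liver proteins.

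Promoter sequences of 5 members are shown. Cyp2e1, Cyp2a5, Cyp2c38 and Cyp2c40 were lower after APAP, and Cyp3a11 is an APAP-oxidising enzyme with no detected change. Those of the other members are not shown. The sequences are from RefSeq on GRCm38.p6, 5′ to 3′ on the strand of the gene, and lie upstream of the RefSeq start site at chr7:140763776-140763805 (Cyp2e1, + strand), chr7:26835169-26835304 (Cyp2a5, + strand), chr19:39463076-39463245 (Cyp2c38, − strand), chr19:39812820-39812984 (Cyp2c40, − strand) and chr5:145879945-145879974 (Cyp3a11, − strand). The gene bounds in the deposited table begin further upstream than the RefSeq start for Cyp2e1, Cyp2a5 and Cyp3a11. All 30 bases printed for Cyp2e1 and part of those for Cyp3a11 lie within the gene as that table bounds it. Those printed for Cyp2a5 end just before that bound. In Cyp2e1, Cyp2a5 and Cyp3a11, 80, 34 and 110 bases before the RefSeq start fall in an exon of the GENCODE annotation. Capitals mark letters that were searched for: TATAAA, the core of a TATA box; CAAAGTCC, bound by HNF4-type receptors; GTTAAT, part of an HNF1 site; and TTGCNNAA, bound by C/EBP factors.
Cyp2e1: tcaacgacacgtTATAAAatccttgtttct
Cyp2a5: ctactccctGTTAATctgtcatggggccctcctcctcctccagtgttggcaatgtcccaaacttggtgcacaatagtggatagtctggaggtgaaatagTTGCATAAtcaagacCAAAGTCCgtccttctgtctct
Cyp2c38: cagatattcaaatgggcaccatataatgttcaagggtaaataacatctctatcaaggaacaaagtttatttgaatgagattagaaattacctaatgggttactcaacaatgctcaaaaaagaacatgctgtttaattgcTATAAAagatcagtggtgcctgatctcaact
Cyp2c40: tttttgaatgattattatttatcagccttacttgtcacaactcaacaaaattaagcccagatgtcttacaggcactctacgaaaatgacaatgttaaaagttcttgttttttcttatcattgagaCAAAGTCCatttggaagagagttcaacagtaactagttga
Cyp3a11: gaagagagtacCAAAGTCCagtgatgcaaa
The TATAAA of both Cyp2e1 and Cyp2c38 began 31 bases before the RefSeq start, and CAAAGTCC began 56 bases before it in Cyp2a5, 45 in Cyp2c40 and 109 in Cyp3a11. Some matches lie outside the stretches printed. Among them, Cyp2a5 has a TATAAA that began 29 bases before its start, and Cyp2c40 a TTGCNNAA that began 5 bases before.

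Promoter windows from 250 bases before to 50 bases after the start were found for 65 of the 80 members, and both strands were searched. TATAAA was in 29 of the 65, against 13.6% of all 32851 promoters. CAAAGTCC was in 14 of the 65, against 1.42% of all promoters, and its carriers included Cyp2a4, Cyp2c68 and Cyp2c70 beside the genes printed above. TTGCNNAA was in 15 of the 65 (10.8% of all promoters), GTTAAT in 10 (7.10%) and GCGTG, the core of the dioxin response element, in 13 (32.4%). Of the 8 members that were lower in APAP than in NC, 7 held TATAAA, 5 held TTGCNNAA, 4 held CAAAGTCC (Cyp2a5, Cyp2c40, Cyp2c67 and Cyp2c69), 3 held GTTAAT and 0 held GCGTG. In Cyp2c40 the TATAAA lay 40 bases after the start, which is not the place of a TATA box. These are matches of letters and not measured binding sites, and promoters of closely related genes share descent.

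The libraries held 13418921 to 16210930 reads on genes, with NC at 14920463 to 15444087, APAP at 13640978 to 14167230 and AMSC at 13418921 to 16210930. Values are FPKM, fragments scaled to gene length and to a size factor of each library. Levels of different genes can be set side by side only roughly, since the deposited gene length can exceed that of the transcript. It is 5093 bases for Cyp3a11, whose longest protein-coding GENCODE transcript has 2344, and 2158 for Cyp2e1, where that transcript has 1833. Rankings, sums and shares across genes carry this limit. The size factor is the median, over genes, of a library's reads relative to all libraries, and not its total reads. This scaling holds the median change over all genes near no change. Of the 80 members, 45 averaged 1 FPKM or more across the 9 libraries and were tested, 26 were above 0 but under that limit, and 9 were at 0 in every library. A gene is called differentially expressed (DEG) where the adjusted p of limma over all 9699 genes tested was at most 0.05 and the fold change at least 1 on the log2 scale of FPKM + 1. This scale understates the change of genes with few FPKM. The 3 comparisons share libraries, so they are given side by side and not as independent evidence. NC replicate 3 carries another date in its label than all other libraries. Results that change without it are named where they occur.

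P450 transcripts of these families made up 3.20% to 3.28% of all reads on genes in NC, 1.79% to 2.47% in APAP and 2.92% to 3.05% in AMSC. Their summed level was 12349, 11126 and 11799 FPKM in the NC livers, 10637, 7570.3 and 8136 in the APAP livers, and 12541, 12515 and 11863 in the AMSC livers. All APAP sums lay below all NC and AMSC sums. Cyp2e1 held most of that gap, since without it the sums were 8349 ± 437 FPKM in NC, 7935 ± 1009 in APAP and 8687 ± 309.8 in AMSC (SD, n = 3 each). In whole tissue, fewer cells of a type and less RNA per cell cannot be told apart.

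After APAP alone, 8 of the 45 tested members fell and 1 rose relative to NC. Over all genes tested, 2.8% were DEGs lower in APAP and 5.09% were DEGs higher. The 8 that fell were Cyp2e1, Cyp2a5 and 6 members of Cyp2c (Cyp2c29, Cyp2c37, Cyp2c38, Cyp2c40, Cyp2c67 and Cyp2c69), and the 1 that rose was Cyp4f17. The median log2 fold change of the 45 was 0.04, against -0.00 over all genes tested, so the members spread around the median of all genes. The scaling itself holds that median near no change. Between AMSC and APAP 3 members, Cyp2e1, Cyp2a5 and Cyp2c38, were higher in AMSC, against 0.742% of all genes. With limma 0 members were lower in AMSC than APAP (1.22% of all genes). At an unadjusted p under 0.05 there were 6 such members, and voom on recovered reads also called 0. The number of DEGs in APAP against NC, 9, was 4 without NC replicate 1 and 5 without NC replicate 2 or NC replicate 3. In AMSC against APAP it was 7 without APAP replicate 1 and 1 without AMSC replicate 2 or AMSC replicate 4. With every gene above 0 in any library tested, Cyp2c38 was the 1 member left as a DEG in APAP against NC, and 0 were left in AMSC against APAP. Between AMSC and NC 5 members were higher in AMSC (Cyp4a14, Cyp4f17, Cyp2j9, Cyp2b10 and Cyp4a32; 3.92% of all genes) and 2 were lower (Cyp1a2 and Cyp2u1; 2.09% of all genes). The median over the 45 was 0.09 for AMSC against APAP (0.01 over all genes) and -0.09 for AMSC against NC (0.02 over all genes).

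Scaling to total reads, an alternative chosen after seeing the data, put the median of all genes at -0.22 in APAP against NC, 0.06 in AMSC against APAP and -0.14 in AMSC against NC, where it was -0.00, 0.01 and 0.02 on the deposited scale. Under it 0 members were higher and 10 lower in APAP than NC, 5 were higher and 4 lower in AMSC than NC, and 3 were higher in AMSC than APAP. Over all genes that scaling gave 361 higher and 473 lower in APAP than NC, where the deposited scale gave 494 and 272. For AMSC against NC the numbers were 311 and 343 against 380 and 203, and for AMSC against APAP 88 and 102 against 72 and 118. Quantile normalization gave 5 members higher and 5 lower in AMSC than NC.

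**Figure D1:**
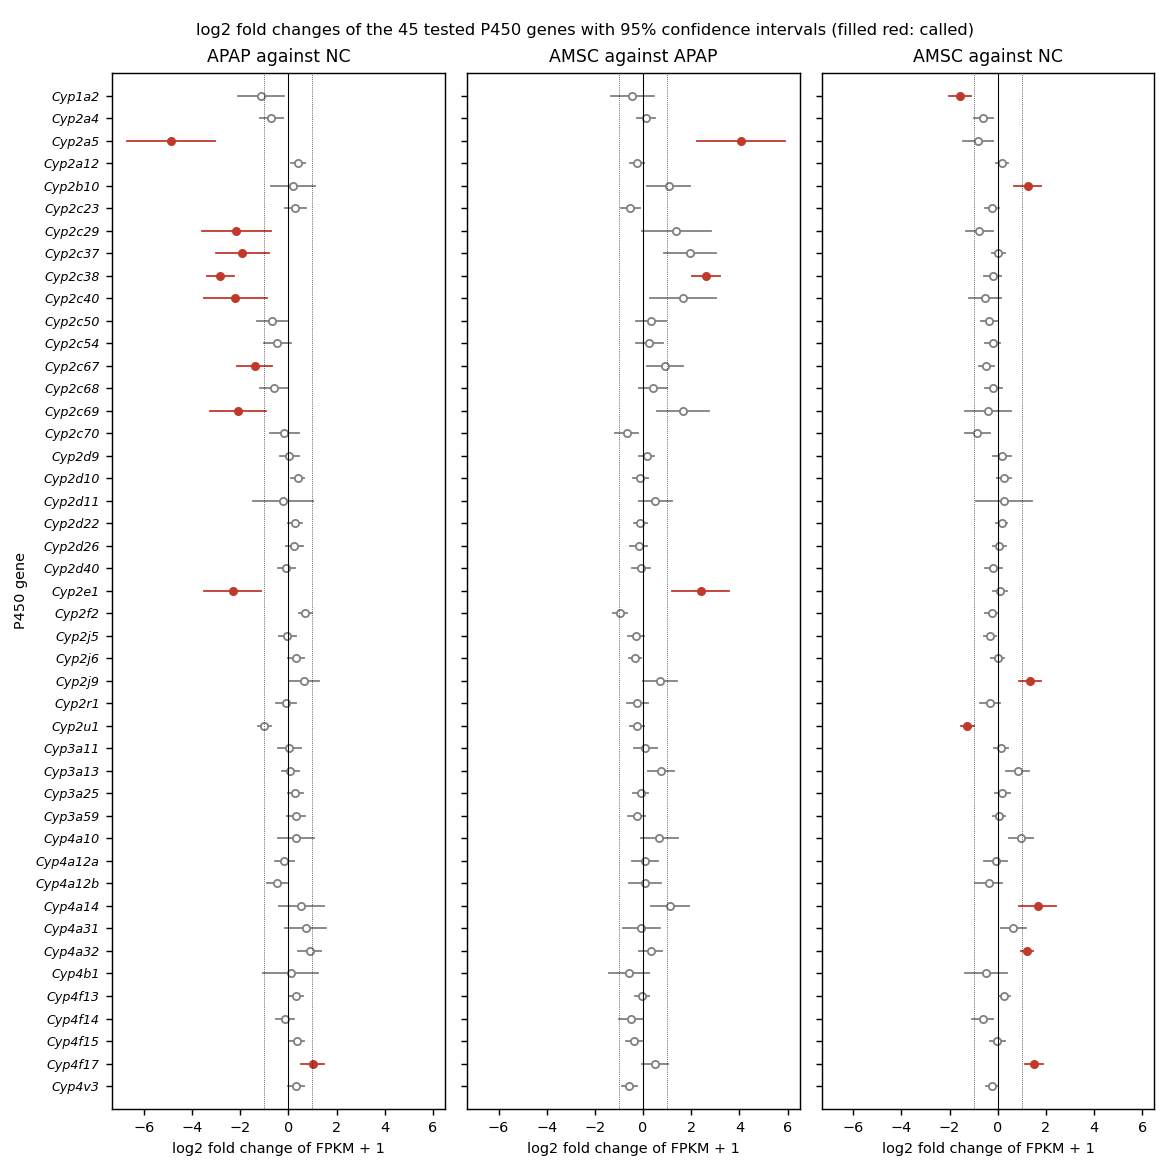
Log2 fold change of FPKM + 1 (x axis) for each of the 45 tested P450 genes (y axis) in the 3 comparisons, with filled points for DEGs. Cyp2a5 has the largest change in APAP against NC at -4.87, and most other genes lie near 0.

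Among the genes of enzymes that make NAPQI, the transcript level of Cyp2e1 fell, while no change of Cyp3a11 was detected. The paper reports that the protein of the former was unchanged after APAP at this sampling time and reduced at a later one. The values here are of RNA only, so a fall of transcript is not a measured fall of enzyme. Cyp2e1 (ENSMUSG00000025479, chr7:140763739-140774987, GRCm38), which also oxidises ethanol, was the most abundant P450 gene in NC. Its level was 3605, 3247 and 3373 FPKM in the NC livers, 1541, 294 and 705 in the APAP livers, and 3848, 3521 and 3488 in the AMSC livers. All APAP livers lay below the other 6, whose ranges overlapped. The mean was 3408 ± 181 FPKM in NC, 847 ± 635 in APAP and 3619 ± 199 in AMSC (SD, n = 3), and Cyp2e1 made up 29.0%, 9.64% and 29.4% of the summed P450 level in these groups. It fell by 2.31 ± 0.51 (log2, SE) in APAP against NC (adjusted p = 0.0147, limma) and was higher by 2.40 ± 0.51 in AMSC than APAP (adjusted p = 0.0474, limma). Between AMSC and NC the difference was 0.09 with a 95% interval from -0.20 to 0.37 (adjusted p = 0.646, limma). The AMSC against APAP call lay close to the threshold and was lost without any one of APAP replicate 3, AMSC replicate 2, AMSC replicate 3 or AMSC replicate 4, with adjusted p of 0.123, 0.12, 0.147 and 0.137, whereas the fall against NC kept its call without any one library. The call in AMSC against APAP was also lost with a pseudocount of 0.1 (adjusted p = 0.0501), with only genes averaging 5 FPKM or more (adjusted p = 0.0501) and with quantile normalization (adjusted p = 0.0533), all by limma.

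Cyp3a11 (ENSMUSG00000056035, chr5:145854426-145879964), the main drug-oxidising Cyp3a enzyme of mouse liver, had 847, 978 and 1018 FPKM in NC, 759, 917 and 1323 in APAP, and 1033, 999.6 and 1069 in AMSC. The groups overlapped in every comparison. The log2 differences were 0.04 for APAP against NC (95% interval -0.45 to 0.53), 0.09 for AMSC against APAP (-0.39 to 0.57) and 0.13 for AMSC against NC (-0.15 to 0.41), and the sign of each turned under at least 1 alternative. Cyp3a25 had means of 340.0 ± 37.9 FPKM in NC, 416 ± 29.7 in APAP and 388 ± 48.6 in AMSC and was not a DEG. Cyp3a13 was at 64.6 ± 5.04, 68.5 ± 10.98 and 119 ± 37.2 FPKM, and its log2 difference of 0.82 ± 0.21 between AMSC and NC had an adjusted p of 0.0226 (limma) but stayed under the fold limit. Cyp3a59 was at 26.5 ± 2.30, 33.6 ± 5.83 and 27.7 ± 1.97 FPKM and was not a DEG. The remaining 5 Cyp3a genes, of which Cyp3a16 had 154 reads in all, were too low to test.

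Cyp1a2 (ENSMUSG00000032310, chr9:57676937-57683703), which also oxidises caffeine, differed from Cyp2e1 in the AMSC livers. It had 947, 553 and 764 FPKM in NC, 576, 173 and 378 in APAP, and 222, 243 and 276 in AMSC. All AMSC livers lay below all NC livers and within the range of the APAP livers. It was lower by 1.58 on the log2 scale in AMSC than NC (-1.58 ± 0.20, adjusted p = 0.00106, limma), a call kept under each alternative. In APAP against NC the value was -1.13 ± 0.41 with an adjusted p of 0.0832 (limma). With the replicate number as a block the adjusted p was 0.0150 (limma) and Cyp1a2 was a DEG, but the labels do not pair these mice. It was also a DEG with quantile normalization (adjusted p = 0.0288), in a single fit of all libraries (0.0430), with total-read scaling (0.0340) and without APAP replicate 1 (0.0213), by limma. AMSC against APAP gave -0.45 ± 0.39 (adjusted p = 0.57, limma). Cyp1a1, the inducible partner gene next to it, averaged 0.784, 1.06 and 1.04 FPKM and was not tested.

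Cyp2a5 (ENSMUSG00000005547, chr7:26835305-26843548), which oxidises nicotine and coumarin, had the largest fall of the family. The NC livers had 661, 386 and 510.3 FPKM, the APAP livers 56.2, 3.66 and 18.6, and the AMSC livers 222, 423 and 252. Every APAP liver lay below every other liver, and the means were 519 ± 138, 26.2 ± 27.1 and 299 ± 109 FPKM, so the NC mean was 19.8 times the APAP mean. Cyp2a5 fell by 4.87 ± 0.78 on the log2 scale in APAP against NC (adjusted p = 0.00433, limma) and was higher by 4.05 ± 0.79 in AMSC than APAP (adjusted p = 0.0373, limma). AMSC against NC gave -0.82 ± 0.27 (adjusted p = 0.0599, limma), which became a DEG with quantile normalization (-1.13), total-read scaling (-1.01) and without NC replicate 2 (-1.01) or AMSC replicate 3 (-1.10). The AMSC against APAP call was lost without APAP replicate 3, AMSC replicate 2, AMSC replicate 3 or AMSC replicate 4 (adjusted p of 0.1, 0.0867, 0.135 and 0.117).

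The other Cyp2a genes differed from Cyp2a5 in size or direction. Cyp2a4, a steroid hydroxylase that is nearly identical to Cyp2a5, had 1.28, 2.53 and 1.70 FPKM in NC, 1.12, 0.557 and 0.514 in APAP, and 0.797, 0.841 and 0.919 in AMSC. Of the 100-base windows in Cyp2a5 transcripts, 14.4% also occur in other genes, here Cyp2a4 and the pseudogene Cyp2a21-ps, so reads may have been split among them. The log2 difference of Cyp2a4 was -0.71 ± 0.21 in APAP against NC (adjusted p = 0.0399, limma), under the fold limit. Cyp2a12 had 197, 168 and 193 FPKM in NC, 263, 249 and 228 in APAP, and 208, 196 and 224 in AMSC, so it was higher in every APAP liver than in any NC liver (log2 difference 0.41, adjusted p = 0.0518, limma). Cyp2a22 was too low to test, with means of 1.04 ± 0.141, 0.235 ± 0.0470 and 0.532 ± 0.156 FPKM.

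The Cyp2c subfamily, whose enzymes oxidise many drugs and arachidonic acid, had 15 members of which 11 were tested, and 6 of the 11 fell in APAP against NC. The median log2 fold change over the 11 was -1.40 in APAP against NC, 0.93 in AMSC against APAP and -0.35 in AMSC against NC. The value in APAP against NC was negative for 10 of the 11, all except Cyp2c23, which lies outside the cluster of the others. Summed FPKM of the subfamily was 1696 ± 216 in NC, 1017 ± 389 in APAP and 1268 ± 166 in AMSC (SD, n = 3).

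Cyp2c38 (ENSMUSG00000032808, chr19:39389556-39463075) kept its calls in APAP against NC and in AMSC against APAP without any one library. It had 11.8, 10.02 and 8.93 FPKM in NC, 1.30, 0.141 and 0.519 in APAP, and 9.41, 9.95 and 7.05 in AMSC. The APAP values rest on 50, 5 and 20 reads, with exact 95% Poisson intervals of 37.1 to 65.9, 1.62 to 11.7 and 12.2 to 30.9 that cover counting error only, where the NC libraries had 565, 497 and 441 reads and the AMSC libraries 429, 371 and 304. The NC and AMSC ranges overlapped, and all APAP values lay far below both. It fell by 2.82 ± 0.25 in APAP against NC (adjusted p = 0.000355, limma), was higher by 2.62 ± 0.26 in AMSC than APAP (adjusted p = 0.00429, limma), and gave -0.20 ± 0.15 in AMSC against NC (adjusted p = 0.361, limma).

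Cyp2c29 (ENSMUSG00000003053, chr19:39269405-39330713), the most abundant of the Cyp2c genes that fell, had 496, 298 and 340.0 FPKM in NC, 203, 28.7 and 93.0 in APAP, and 245, 158 and 260.4 in AMSC. The NC and APAP ranges did not overlap, and the AMSC livers lay below all NC livers and overlapped with APAP. It fell by 2.16 ± 0.61 in APAP against NC (adjusted p = 0.0368, limma). AMSC against APAP gave 1.39 ± 0.61 (adjusted p = 0.248) and AMSC against NC -0.77 ± 0.24 (adjusted p = 0.0487), both by limma. Quantile normalization put the latter past the fold limit (-1.01). The call in APAP against NC was lost without NC replicate 1, 2 or 3 or APAP replicate 3, with adjusted p of 0.11, 0.0788, 0.0804 and 0.0743. A pseudogene, Cyp2c53-ps, overlaps this gene on the same strand.

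Cyp2c37 (ENSMUSG00000042248, chr19:39992424-40012243) had 168, 143 and 156 FPKM in NC, 90.5, 19.0 and 37.4 in APAP, and 168, 145 and 162 in AMSC. Here too the APAP livers stood apart, and NC and AMSC had nearly the same range. It fell by 1.92 ± 0.47 in APAP against NC (adjusted p = 0.0222, limma), was at 1.95 ± 0.47 in AMSC against APAP (adjusted p = 0.0692, limma), and at 0.03 ± 0.11 in AMSC against NC (adjusted p = 0.888, limma). The fall lost its call without NC replicate 1, 2 or 3 or APAP replicate 3 (adjusted p of 0.0666, 0.0607, 0.059 and 0.0604), and the AMSC against APAP difference gained one without APAP replicate 1 (adjusted p = 0.00564), in a single fit of all libraries (0.0249) and with voom (0.0406).

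Cyp2c40, Cyp2c67 and Cyp2c69 share long stretches of sequence, so their reads cannot be assigned with certainty: 44.1%, 23.7% and 36.3% of the 100-base windows in their transcripts occur in other genes too. Cyp2c40 (ENSMUSG00000025004, chr19:39767071-39812814) had 32.2, 21.6 and 19.7 FPKM in NC, 13.9, 2.02 and 2.56 in APAP, and 25.8, 10.8 and 15.4 in AMSC. Cyp2c67 (ENSMUSG00000062624) had 97.4, 86.1 and 107 FPKM in NC, 57.7, 21.2 and 37.6 in APAP, and 64.0, 63.1 and 82.0 in AMSC. Cyp2c69 (ENSMUSG00000092008) had 17.7, 6.27 and 6.37 FPKM in NC, 3.79, 0.501 and 0.799 in APAP, and 10.5, 3.87 and 6.54 in AMSC. In all of them the APAP livers lay below the NC livers. In APAP against NC the log2 fold change was -2.20 ± 0.56 for Cyp2c40 (adjusted p = 0.0246), -1.40 ± 0.32 for Cyp2c67 (adjusted p = 0.0164) and -2.09 ± 0.51 for Cyp2c69 (adjusted p = 0.0208), by limma. None of them was a DEG between AMSC and APAP, with differences of 1.67, 0.93 and 1.68, but without APAP replicate 1 each was (adjusted p of 0.0124, 0.0438 and 0.0189). Without single libraries Cyp2c40 lost its call for NC replicates 1, 2 and 3 and APAP replicates 2 and 3 (adjusted p of 0.0791, 0.0655, 0.0515, 0.0769 and 0.0739), Cyp2c67 for NC replicates 1 and 3 (0.0518 and 0.0517), and Cyp2c69 for NC replicate 1 and APAP replicates 2 and 3 (0.0558, 0.0699 and 0.0636).

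The remaining Cyp2c genes were not DEGs in any comparison. Cyp2c50, the highest of the subfamily by its mean over all 9 libraries although below Cyp2c29 in NC, had 320.0, 257 and 320.4 FPKM in NC, 288, 135 and 164 in APAP, and 260.2, 202 and 242 in AMSC, with a log2 difference of -0.68 ± 0.27 in APAP against NC (adjusted p = 0.104, limma). Cyp2c70, which makes muricholic acids from bile acid precursors, gave -0.17 in APAP against NC and -0.85 ± 0.23 in AMSC against NC (adjusted p = 0.0282, limma). Cyp2c39 was under the limit for testing, with 0.915 ± 0.343 FPKM in NC, 0.109 ± 0.103 in APAP and 0.977 ± 0.286 in AMSC. Of the 14 Cyp2c genes on chr19 between 39007019 and 40187333, 10 were tested, and all 6 that fell lie here. The cluster on chr7 between 25802475 and 27158668 holds 13 members of Cyp2a, Cyp2b, Cyp2f and others, of which 5 were tested and Cyp2a5 alone fell in APAP against NC. It also holds Cyp2f2.

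**Figure D2:**
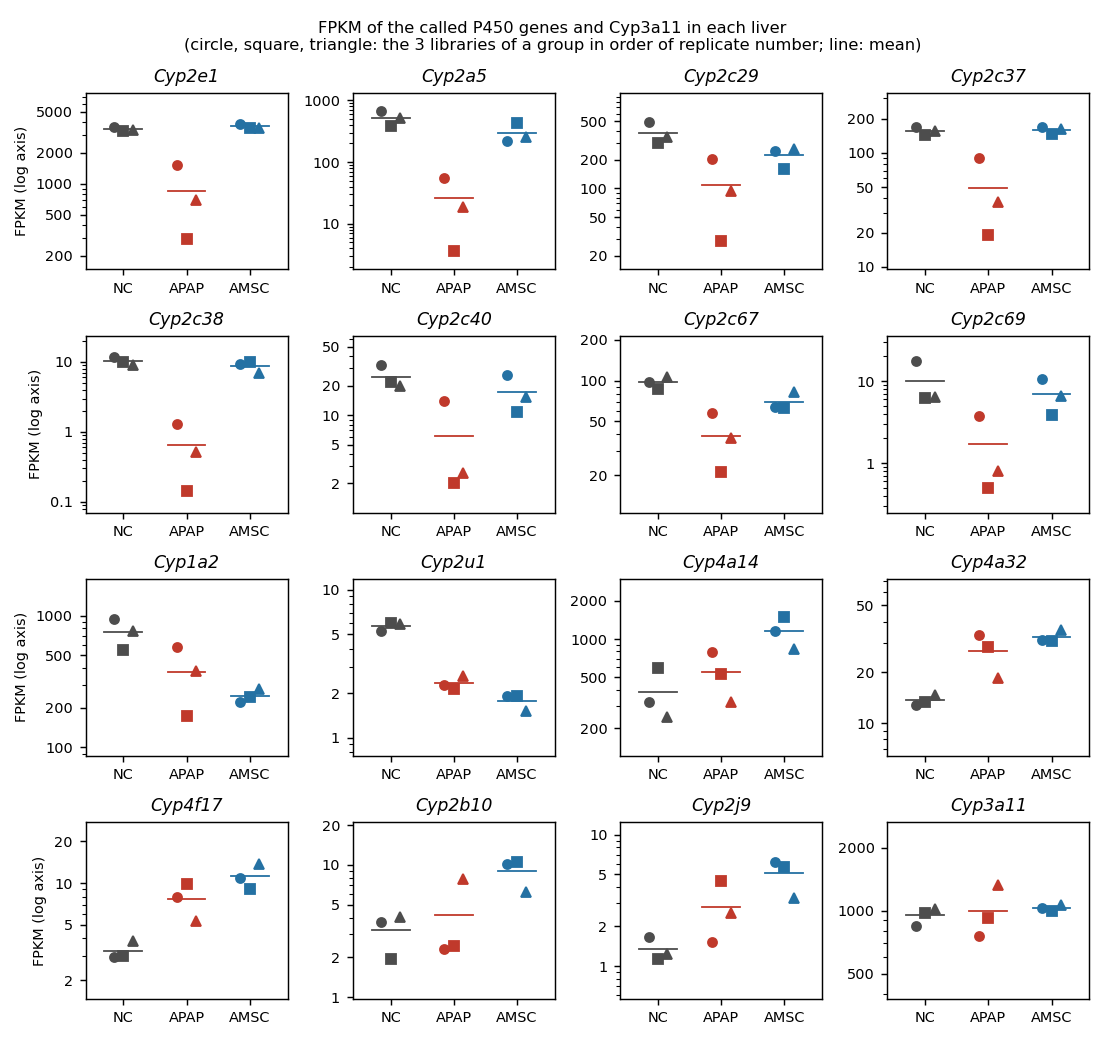
FPKM on a log axis in each liver (points; bar, mean of 3) for the P450 genes that were DEGs in at least 1 comparison, and for Cyp3a11, which was a DEG in none. For Cyp2e1, Cyp2a5 and the Cyp2c genes shown, the APAP livers lie below all NC livers, and for Cyp1a2 the AMSC livers lie at 222 to 276 FPKM.

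Cyp2f2, known for its expression around the portal vein and in lung club cells, went the other way from Cyp2e1. It (ENSMUSG00000052974) had 459, 479 and 506 FPKM in NC, 819, 818 and 725 in APAP, and 399, 434 and 378 in AMSC. The 3 groups did not overlap. The log2 difference was 0.71 ± 0.12 in APAP against NC (adjusted p = 0.00606, limma), -0.96 ± 0.13 in AMSC against APAP (adjusted p = 0.0113, limma) and -0.26 ± 0.11 in AMSC against NC (adjusted p = 0.13, limma). All these lay under the fold limit, so Cyp2f2 was not a DEG, although it was lower in AMSC than APAP past that limit without APAP replicate 3 (-1.02, adjusted p = 0.0320) or AMSC replicate 3 (-1.02, adjusted p = 0.0410). A transcript on the other strand, Gm15883, overlaps Cyp2f2, and whether strand was used in the counting is not given in the sources used here.

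The Cyp2d subfamily, which oxidises many amine drugs, was abundant and had 0 DEGs among its 6 tested members with limma and with voom. Cyp2d10 alone had an unadjusted p under 0.05, in APAP against NC. The sum over its 8 members was 1802 ± 110.2 FPKM in NC, 2088 ± 73.0 in APAP and 2019 ± 158 in AMSC. Cyp2d9, a testosterone hydroxylase of male mouse liver and the highest member, had 645, 519.7 and 780.3 FPKM in NC, 658, 655 and 667 in APAP, and 726, 667 and 800.4 in AMSC. Both treated groups overlapped with NC, while the AMSC livers lay just above the APAP livers, and its log2 differences were 0.05, 0.14 and 0.19 for APAP against NC, AMSC against APAP and AMSC against NC. Cyp2d10 was higher in APAP than NC in every liver, at 675, 695 and 697 against 546, 524 and 514 FPKM, with a log2 difference of 0.38 ± 0.11 (adjusted p = 0.0426, limma) that is under the fold limit.

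In Cyp2b, whose members respond to the receptor CAR, only Cyp2b10 was tested. Cyp2b10 (ENSMUSG00000030483) had 3.69, 1.94 and 4.02 FPKM in NC, 2.33, 2.45 and 7.86 in APAP, and 10.1, 10.6 and 6.27 in AMSC. All AMSC livers lay above all NC livers, and the APAP livers spread over both. The log2 difference was 1.25 ± 0.25 in AMSC against NC (adjusted p = 0.00799, limma), 0.18 ± 0.39 in APAP against NC (adjusted p = 0.759, limma) and 1.07 ± 0.38 in AMSC against APAP (adjusted p = 0.168, limma), which was a DEG without APAP replicate 3 (1.53, adjusted p = 0.0369).

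Cyp2j enzymes form epoxides from arachidonic acid. Cyp2j5, the main one here, had 225, 196 and 229.5 FPKM in NC, 247, 186 and 199 in APAP, and 165, 171 and 178 in AMSC, with a log2 difference of -0.34 ± 0.11 in AMSC against NC (adjusted p = 0.0539, limma). Cyp2j9 (ENSMUSG00000015224) was low and had 1.65, 1.13 and 1.24 FPKM in NC, 1.52, 4.42 and 2.52 in APAP, and 6.25, 5.69 and 3.31 in AMSC. It rose by 1.35 ± 0.20 in AMSC against NC (adjusted p = 0.0024, limma), and in APAP against NC it was at 0.64 ± 0.26 (adjusted p = 0.112, limma). Cyp2u1 (ENSMUSG00000027983), which hydroxylates long-chain fatty acids, had 5.24, 5.91 and 5.83 FPKM in NC, 2.28, 2.12 and 2.63 in APAP, and 1.92, 1.91 and 1.51 in AMSC. The 3 groups did not overlap. It was lower by 1.26 on the log2 scale in AMSC than NC (-1.26 ± 0.11, adjusted p = 0.000205, limma), and in APAP against NC it was at -0.996 ± 0.12 (adjusted p = 0.00122, limma), just under the fold limit. It passed that limit with a pseudocount of 0.1 (-1.24), quantile normalization (-1.02), voom (-1.27) and total-read scaling (-1.20), and without NC replicate 1 (-1.04) or APAP replicate 3 (-1.06). A transcript on the other strand, 4930534D22Rik, overlaps this gene. Cyp2r1, a vitamin D 25-hydroxylase, had means of 5.37, 4.96 and 4.08 FPKM and was not a DEG.

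The Cyp4a genes, omega-hydroxylases of fatty acids that are targets of the receptor PPARα, differed among themselves. Their sum was 961 ± 286 FPKM in NC, 1266 ± 517 in APAP and 2193 ± 546 in AMSC, and the APAP and AMSC sums overlapped. Of 6 tested members, 2 rose in AMSC against NC. Cyp4a14 (ENSMUSG00000028715) had 319, 591 and 244 FPKM in NC, 799, 536 and 322 in APAP, and 1159, 1483 and 836 in AMSC. The AMSC livers lay above all others, while NC and APAP overlapped. It rose by 1.65 ± 0.33 in AMSC against NC (adjusted p = 0.00855, limma), and the values were 1.13 ± 0.34 in AMSC against APAP (adjusted p = 0.121) and 0.53 ± 0.40 in APAP against NC (adjusted p = 0.372), both by limma. Cyp4a10 had 424, 566 and 367 FPKM in NC, 844, 570.1 and 345 in APAP, and 884, 1121 and 680.5 in AMSC, with a difference of 0.98 ± 0.22 in AMSC against NC (adjusted p = 0.0138, limma) that misses the fold limit.

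Cyp4a32 (ENSMUSG00000063929) had 12.8, 13.3 and 14.7 FPKM in NC, 33.2, 28.1 and 18.6 in APAP, and 31.3, 30.6 and 35.8 in AMSC. Both treated groups lay above NC and overlapped each other. It rose by 1.20 ± 0.11 in AMSC against NC (adjusted p = 0.000233, limma), and in APAP against NC it was at 0.88 ± 0.20 (adjusted p = 0.0174, limma), under the fold limit, which it passed without APAP replicate 3 (1.11). Of its 100-base windows 20.1% also occur in other genes, Cyp4a10 and Cyp4a31 among them, so part of its level is uncertain. Cyp4a12a, the main male-specific member, was at 69.7 ± 9.36, 62.4 ± 12.4 and 67.1 ± 19.4 FPKM in NC, APAP and AMSC and was not a DEG.

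In Cyp4f, whose enzymes inactivate leukotrienes, Cyp4f17 (ENSMUSG00000091586) was the only member of all 45 that was a DEG higher in APAP than NC. It had 2.94, 3.01 and 3.81 FPKM in NC, 7.97, 9.87 and 5.36 in APAP, and 10.9, 8.997 and 13.8 in AMSC. All treated livers lay above all NC livers. It rose by 1.01 ± 0.20 in APAP against NC (adjusted p = 0.0102, limma), at the edge of the fold limit, and by 1.51 ± 0.16 in AMSC against NC (adjusted p = 0.0005, limma). The first call was lost without NC replicate 1 or 2 or APAP replicate 1 or 2, where the log2 fold change was 0.96, 0.97, 0.97 and 0.84, and with total-read scaling, where it was 0.80. Cyp4f14, the highest member, had 119, 112 and 128 FPKM in NC, 132, 95.1 and 101.2 in APAP, and 80.1, 58.0 and 98.2 in AMSC, with -0.63 ± 0.18 in AMSC against NC (adjusted p = 0.0376, limma).

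Of the single-gene subfamilies, Cyp4v3, which hydroxylates medium-chain fatty acids, had 118, 98.2 and 117 FPKM in NC, 150.1, 146 and 120.3 in APAP, and 89.4, 97.0 and 93.5 in AMSC, and its largest difference was -0.56 ± 0.13 in AMSC against APAP (adjusted p = 0.0635, limma). Cyp4b1 ranged from 1.93 to 8.94 FPKM with groups that overlapped, and was a DEG lower in AMSC than APAP without APAP replicate 2 (-1.03, adjusted p = 0.0482). The 35 members not tested were low in all groups, and the 9 at 0 throughout were Cyp2c66, Cyp2j7, Cyp2j12, Cyp2w1, Cyp3a41a, Cyp4a29, Cyp4a30b, Cyp4f40 and Cyp4x1. Cyp1b1, the only member of its subfamily, had 135 reads over all libraries. Cyp2g1, a gene of olfactory tissue, averaged 0.866 FPKM in NC, 0.260 in APAP and 0.563 in AMSC, and Cyp2j8 averaged 0.0643, 0.811 and 0.533 FPKM.

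**Figure D3:**
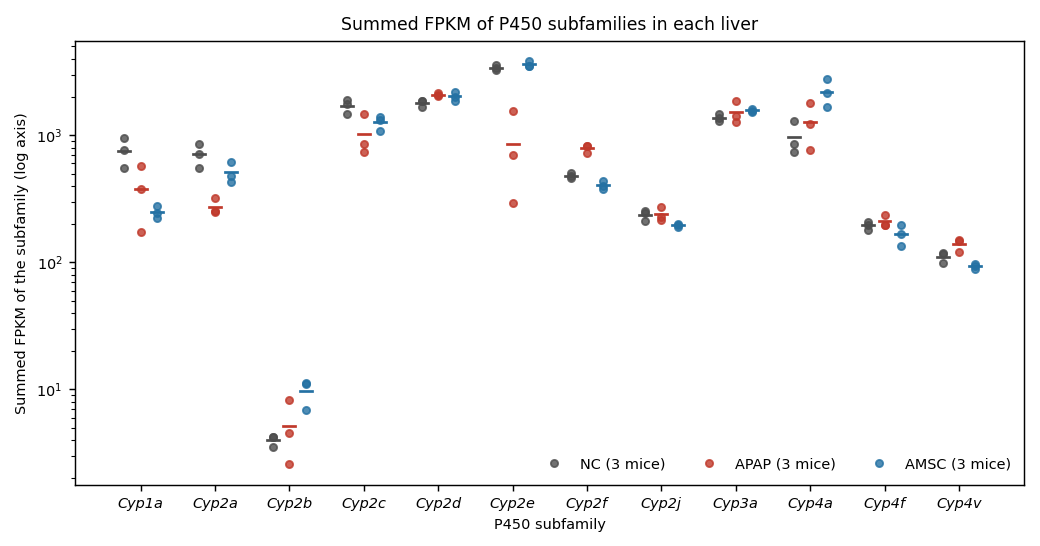
Summed FPKM of the P450 subfamilies in each liver on a log axis (points, single livers of the NC, APAP and AMSC groups). Cyp2e is the highest in NC at 3408 FPKM on average, and the APAP livers lie lowest in Cyp2a and Cyp2e.

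The 8 genes that fell did so to a different extent in each APAP liver and in the same order. All 8 were lowest in APAP replicate 2, intermediate in replicate 3 and highest in replicate 1. Cyp2e1 stood at 45.2%, 8.64% and 20.7% of the NC mean in APAP replicates 1, 2 and 3, Cyp2c38 at 12.7%, 1.37% and 5.06%, and Cyp2a5 at 10.8%, 0.705% and 3.58%. Without APAP replicate 2 the log2 fold change was -1.71 for Cyp2e1, -3.92 for Cyp2a5, -1.42 for Cyp2c29 and -1.40 for Cyp2c37, against -2.31, -4.87, -2.16 and -1.92 with it, and these 4 genes remained DEGs, as did Cyp2c38 (-2.58) and Cyp2c67 (-1.03). Cyp2c40 (-1.78, adjusted p = 0.0769) and Cyp2c69 (-1.77, adjusted p = 0.0699) lost their calls without it. The same order was found for 7 of the other 37 tested P450 genes, for 103 of the 272 genes that were DEGs lower in APAP than NC (37.9%), and for 1454 of all 9699 genes tested (14.99%). It also held for 10 of 10 markers of pericentral hepatocytes that are not P450 genes.

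**Figure D4:**
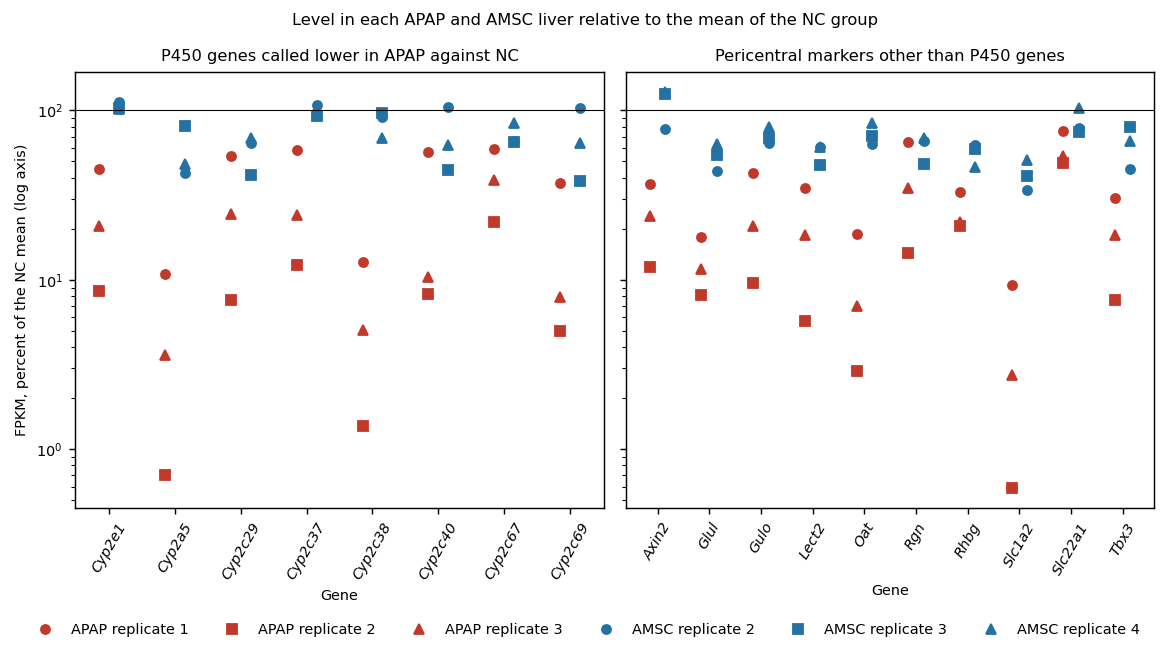
FPKM in each APAP and AMSC liver as a percentage of the NC mean (log axis; line, 100%) for the 8 P450 genes that fell and for pericentral markers. In both sets APAP replicate 2 is lowest, with Cyp2a5 at 0.705%.

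Markers of cell types and zones moved together with several of these results. Of the 10 pericentral markers, 8 were tested and 7 of them fell in APAP against NC, among them glutamine synthetase (Glul, -3.02, adjusted p = 0.000296), ornithine aminotransferase (Oat, -3.71) and the glutamate carrier Slc1a2 (-3.02). Their summed level was 1322 to 1789 FPKM in NC, 185 to 621 in APAP and 958 to 1205 in AMSC. In AMSC against APAP 3 were higher: Glul by 2.12 (adjusted p = 0.00998), Oat by 3.28 (adjusted p = 0.0262) and Slc1a2 by 1.93 (adjusted p = 0.00812), by limma. The part of zonal cell loss or of lower expression per cell in the fall of Cyp2e1, Cyp2a5 and Cyp2c was not tested. The 10 periportal markers, which include Cyp2f2, summed to 4032 to 4857 FPKM in NC, 5683 to 6383 in APAP and 5149.7 to 5748 in AMSC, with 2 DEGs higher in APAP than NC. General hepatocyte markers, albumin among them, summed to 51644 to 56025, 70581 to 83249 and 64663 to 67711 FPKM in NC, APAP and AMSC, and nothing in them went against the labelled tissue. Only Tat was a DEG among these 10, higher by 1.56 in AMSC than NC.

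Markers of other cells were low. The 7 neutrophil markers summed to 0.330 to 1.94 FPKM in NC, 7.69 to 35.3 in APAP and 4.38 to 6.17 in AMSC, all 3 that were tested rose in APAP against NC and 2 were higher in AMSC than NC, while the defining gene Ly6g was at most 0.0857 FPKM in any library. The 8 macrophage markers summed to 54.8 to 110.1, 81.9 to 201 and 45.5 to 73.6 FPKM, with 2 DEGs higher in APAP than NC and Cd68 a DEG lower in AMSC than APAP. All 8 log2 differences were positive in APAP against NC and negative in AMSC against APAP. Of these, 4 and 7 had an unadjusted p under 0.05 (limma). Of the 5 cholangiocyte markers, with sums of 18.7 to 39.6, 57.4 to 97.3 and 27.3 to 50.5 FPKM, Sox9 and Spp1 were higher in APAP than NC and Sox9 was lower in AMSC than APAP. Sinusoidal endothelial markers (8 genes, 23.7 to 52.1, 27.2 to 76.0 and 25.5 to 26.7 FPKM) and stellate or stromal markers (8 genes, 20.6 to 37.3, 27.0 to 59.3 and 26.6 to 44.1 FPKM) held 0 DEGs with limma in each comparison. At an unadjusted p under 0.05 limma gave 2 endothelial and 3 stromal markers in APAP against NC, 4 and 2 in AMSC against APAP, and 2 and 2 in AMSC against NC, and voom called 2 endothelial and 1 stromal marker higher in APAP than NC and 1 stromal marker lower in AMSC than NC. The part of any of these cells in the P450 levels was not tested.

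A list of redox partners of P450 enzymes and associated proteins held 8 genes, of which 7 were tested. Por, the reductase that serves all of these enzymes, had 135, 133 and 181 FPKM in NC, 135, 158 and 145 in APAP, and 278, 299 and 320.0 in AMSC. All AMSC livers lay above all others. Por rose by 1.01 ± 0.14 in AMSC against NC (adjusted p = 0.00202, limma) and was higher by 1.03 ± 0.13 in AMSC than APAP (adjusted p = 0.00832, limma). Both values lay at the edge of the fold limit. Cyb5b, a cytochrome b5 of the outer mitochondrial membrane, had 99.7, 85.8 and 64.5 FPKM in NC, 49.4, 31.6 and 42.5 in APAP, and 40.0, 46.7 and 50.3 in AMSC. It fell by 1.001 ± 0.21 in APAP against NC (adjusted p = 0.0132, limma), only just past the fold limit. Whether the calls of Por and Cyb5b hold without single libraries was not examined.

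Heme is the cofactor of every P450 enzyme, and 12 of 12 genes of its synthesis and breakdown were tested. In APAP against NC 1 rose and 2 fell. Alas1, the rate-limiting enzyme of synthesis, had 222, 198 and 195 FPKM in NC, 34.2, 51.0 and 50.9 in APAP, and 144, 247 and 138 in AMSC. The APAP livers stood apart from both other groups, and the change was -2.17 ± 0.18 in APAP against NC (adjusted p = 0.000251, limma) and 1.91 ± 0.26 in AMSC against APAP (adjusted p = 0.0113, limma). Cpox, a later step, had 30.6, 30.7 and 26.8 FPKM in NC and 17.9, 8.70 and 9.77 in APAP and fell by 1.27 ± 0.24 (adjusted p = 0.00865, limma). Hmox1, which breaks heme down and is induced by oxidative stress, had 4.55, 4.56 and 9.92 FPKM in NC, 556, 1115 and 834 in APAP, and 795, 345 and 1003 in AMSC. It rose by 6.85 ± 0.33 in APAP against NC (adjusted p = 3.09e-05, limma) and by 6.55 ± 0.41 in AMSC against NC (adjusted p = 3.39e-05, limma), and APAP and AMSC overlapped.

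Transcription factors that act on P450 genes formed a list of 25, of which 23 were tested: 1 rose and 7 fell in APAP against NC, 1 was higher and 1 lower in AMSC than APAP, and 2 were higher and 1 lower in AMSC than NC. Ahr, the receptor that induces Cyp1a genes, had 8.52, 5.64 and 5.20 FPKM in NC, 2.70, 1.45 and 1.27 in APAP, and 5.98, 9.29 and 4.97 in AMSC. It fell by 1.42 ± 0.23 in APAP against NC (adjusted p = 0.00475, limma), was higher by 1.46 ± 0.25 in AMSC than APAP (adjusted p = 0.0273, limma) and gave 0.04 in AMSC against NC, where Cyp1a2 was lower. Dbp, a circadian factor that drives Cyp2a5 and other P450 genes, had 30.7, 25.7 and 28.1 FPKM in NC, 5.21, 5.93 and 6.09 in APAP, and 12.2, 6.84 and 9.14 in AMSC, with -2.11 ± 0.12 in APAP against NC (adjusted p = 6.2e-05) and -1.52 ± 0.18 in AMSC against NC (adjusted p = 0.000927), by limma. Its level follows the hour of the day, which the labels do not give. Cebpb, an acute-phase factor, had 100.9, 112 and 99.6 FPKM in NC, 156, 482 and 454 in APAP, and 487, 440.4 and 494 in AMSC, and rose in both comparisons with NC, by 1.63 ± 0.40 (adjusted p = 0.021) and 2.17 ± 0.11 (adjusted p = 9.77e-06), by limma. Nr0b2, the repressor SHP, had 46.4, 52.7 and 63.7 FPKM in APAP and 15.9, 15.2 and 14.1 in AMSC, a difference of -1.77 ± 0.15 (adjusted p = 0.00213, limma).

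Of the 20 P450 genes outside the rule 9 were tested, all of other families. Cyp26a1, which degrades retinoic acid, had 13.0, 16.1 and 20.3 FPKM in NC, 6.31, 5.55 and 6.76 in APAP, and 4.26, 1.61 and 2.63 in AMSC. It fell by 1.26 ± 0.17 in APAP against NC (adjusted p = 0.00215, limma) and was at -2.23 ± 0.26 in AMSC against NC (adjusted p = 0.000708, limma). Cyp7a1, the rate-limiting enzyme of bile acid synthesis, was the other DEG of this list in APAP against NC, at -4.96 ± 0.29, and remained low in the AMSC livers at 3.83, 15.1 and 3.25 FPKM (-3.18 ± 0.45 against NC, adjusted p = 0.00196, limma), unlike Cyp2e1, whose AMSC livers lay within or above the NC range. Cyp7b1, an oxysterol hydroxylase, was the third DEG in AMSC against NC, at -1.08 ± 0.27 (adjusted p = 0.0217, limma).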

How the data were processed

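The authors sequenced total liver RNA (RNeasy mini plus extraction and a SMARTER mRNA-seq kit, per the labels) and deposited FPKM values per gene, with GRCm38/mm10 in the submitters' notes. The aligner and counter are not given in the sources used here. With gene length, 100% of values gave whole reads (tolerance 0.1), which supplied depths. Size factors computed from these reads matched the scaling of the deposited values in every library. All columns were mapped to samples (0 left out). Groups follow the labels. The study tested 2 groups at a time with 3 replicates, and its count test was replaced by limma 3.58.1 (R 4.3.3; lmFit, eBayes with trend) on log2(FPKM + 1) of the 9699 genes averaging 1 FPKM or more, with Benjamini-Hochberg adjustment. Scripts were tested on simulated data.

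Members and lists were chosen with earlier results of these data known. Named were all DEGs among the members, the highest member of each subfamily, Cyp2e1, Cyp1a2 and Cyp3a11, and up to 4 DEGs of each list of redox, heme, transcription factor and other P450 genes. Further members were chosen after their values were seen. The labels do not pair mice across groups, and NC replicate 3 carries another date. Replicate numbers were checked as pairs all the same. Deviations of same-numbered APAP and NC libraries correlated at 0.213, 0.160 and 0.378, and for this comparison the blocked value is given where it changes a call. For the other comparisons the number of DEGs with the block is given. Alternatives were pseudocount, filter, quantile and total-read scaling, a single fit, no trend, voom on recovered reads, no minimum fold and leaving out each library. Changes of calls under them were followed for the members, and for genes of the other lists only with voom.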

Additional observations from a re-analysis of the deposited data

How the results depend on the processing

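The count of P450 DEGs in APAP against NC (9) was 1 with all genes above 0 tested, 14 with no minimum fold change, and 4 to 9 without single libraries. It was 9 to 11 in the other settings and 10 with the replicate block. In AMSC against APAP (3) it was 0 with all genes above 0, where the 3 genes kept their direction with adjusted p of 0.226, 0.202 and 0.078 for Cyp2e1, Cyp2a5 and Cyp2c38, 10 with the replicate block, and 1 to 7 without single libraries. These groups share only the numbers 2 and 3, whose libraries did not deviate together (correlations -0.104 and -0.293), so that block is no pairing. In AMSC against NC (7) it was 14 with no minimum fold change and 9 with the replicate block (correlations -0.199 and -0.309), and with all genes above 0 Cyp4a14 and Cyp2b10 lost their calls (adjusted p of 0.0868 and 0.0777). The median over the tested members became -0.18 with quantile normalization, -0.22 with total-read scaling and -0.10 without NC replicate 2 in APAP against NC, and -0.28 with total-read scaling in AMSC against NC. Total-read scaling moved the median of all genes as well, to -0.22 in APAP against NC and -0.14 in AMSC against NC. The cause of the other shifts was not tested.

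Values that changed sign were of genes that were not DEGs in that comparison. In APAP against NC, quantile normalization gave -0.34 for Cyp2d9 and -0.22 for Cyp3a11, and total-read scaling gave -0.00996 for Cyp2b10, -0.21 for Cyp2d9, -0.22 for Cyp3a11 and -0.10 for Cyp4b1. Leaving out single libraries gave -0.28 to 0.43 for Cyp2b10, -0.10 to 0.19 for Cyp2d9, -0.17 to 0.037 for Cyp2j5, -0.23 to 0.041 for Cyp2r1, -0.18 to 0.22 for Cyp3a11 and -0.24 to 0.58 for Cyp4b1. In AMSC against APAP Cyp3a11 was -0.12 with the replicate block and -0.092 to 0.31 without single libraries. In AMSC against NC, quantile normalization gave -0.19 for Cyp2c37, -0.13 for Cyp2d9, -0.18 for Cyp2e1 and -0.20 for Cyp3a11, total-read scaling gave -0.17, -0.0049, -0.11 and -0.065 for these genes, and the replicate block gave 0.0298 for Cyp2c38 and 0.0334 for Cyp2c69. Leaving out single libraries gave -0.034 to 0.087 for Cyp2c37, -0.72 to 0.037 for Cyp2c69 and -0.82 to 0.00046 for Cyp4b1. The replicate block changed no call of a named gene in APAP against NC other than that of Cyp1a2. A count of few reads limits the low members, such as Cyp2c38 in the APAP livers.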
